A study of Mus musculus with 7 samples.

Results

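The cells described here are the donor myeloid cells that the authors placed in the cluster S100a_Mono, named S100a+ monocytes, after bone marrow transplantation. They were found by that entry in the deposited table of cells and numbered 614 of the 11899 donor cells, and 594 of them (96.7%) came from the library BMT replicate 2. The recipients were male C57BL/6 mice carrying CD45.2, which had been lethally irradiated, the marrow came from female C57BL/6 mice carrying CD45.1, and the epidermis was taken 3 weeks after transplantation. Donor CD11b+ MHCII+ cells were sorted and sequenced as single cells in 4 libraries, of which 3 are labelled bone marrow transplant (BMT replicates 1 to 3) and 1 is labelled bone marrow transplant plus T cells (BMT + T cells). The design text names donor CD4 T cells and Matahari T cells, which are CD8 cells that recognise a male antigen, without separating the libraries by them, and the study's text likewise describes the sorted donor cells as coming after transplantation with these T cells. The treatment labels name T cells for 1 of the 4 donor libraries, so BMT and BMT + T cells are used here as labels, and whether the BMT libraries lacked T cells is uncertain. The epidermis of several mice was pooled for sorting, and nothing separates the cells of 1 mouse from those of another. Each library is therefore 1 sample, and the cells in it are not replicates.

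S100a8 and S100a9 encode a pair of small calcium-binding proteins that join into calprotectin, which neutrophils and newly recruited monocytes carry in large amounts in their cytoplasm. Calprotectin binds zinc and manganese, which starves microbes of these metals, and acts as an alarm signal through Toll-like receptor 4 when it is released into tissue. Classical monocytes enter inflamed skin from blood and can give rise to macrophages and to Langerhans-like cells, whereas neutrophils are short-lived and carry little MHC class II.

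The S100a8 and S100a9 promoters are shown because both genes were read out together in these cells and gave the cluster its name. In the RefSeq annotation of mouse build GRCm38.p6, S100a8 lies at chr3:90669071-90670034 on the plus strand and S100a9 at chr3:90692630-90695721 on the minus strand, with 22595 bases between them. Each sequence covers the 250 bases before the annotated start and the 30 bases after it, 5′ to 3′ on the strand of the gene, at chr3:90668821-90669100 for S100a8 and chr3:90695692-90695971 for S100a9. Capitals mark the letters TATAAA, the core of a TATA box.
S100a8: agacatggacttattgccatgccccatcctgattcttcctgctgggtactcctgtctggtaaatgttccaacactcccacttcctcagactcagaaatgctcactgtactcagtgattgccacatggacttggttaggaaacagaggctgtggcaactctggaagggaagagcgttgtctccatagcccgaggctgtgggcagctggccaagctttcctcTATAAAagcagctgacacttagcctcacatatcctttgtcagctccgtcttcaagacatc
S100a9: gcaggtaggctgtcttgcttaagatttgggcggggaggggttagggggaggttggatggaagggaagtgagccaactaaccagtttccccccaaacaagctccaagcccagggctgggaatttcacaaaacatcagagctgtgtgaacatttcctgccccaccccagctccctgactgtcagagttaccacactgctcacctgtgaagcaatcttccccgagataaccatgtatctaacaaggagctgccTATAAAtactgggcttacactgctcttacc
The letters began 30 bases before the annotated start in S100a8 and at the annotated start itself in S100a9. TATAAA, on either strand, was present in 4416 of 32544 distinct promoter windows of 300 bases (13.6%), so the match is a description of these windows and not evidence of use.

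The S100a+ cells were spread very unevenly over the libraries. They made up 594 of 8382 cells (7.09%, 95% Clopper-Pearson interval 6.55 to 7.66) in BMT replicate 2, 11 of 2572 (0.428%, 0.214 to 0.764) in BMT replicate 1, and 9 of 719 (1.25%, 0.574 to 2.36) in BMT + T cells. None was found among the 226 cells of BMT replicate 3, for which the same interval reaches 1.62% and a limit of 3 counts gives 1.33%. The BMT mean was 2.50% ± 3.97 (SD, n = 3), and its difference of 1.25 percentage points from the library labelled BMT + T cells was smaller than that spread, and since the sources differ on T cells in the BMT libraries it compares labels only. With 1 library of BMT + T cells there is no test, and leaving out BMT replicate 2 turned the difference to -1.04 percentage points. No S100a+ cell shared its barcode with a cell of another donor library, where 8 barcodes were shared, and 2 S100a+ cells did so among all 7 libraries, where 32 barcodes were shared. The intervals cover counting error only, here and below.

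The S100a+ cells were shallower than most other clusters. In BMT replicate 2 the median S100a+ cell held 5038 UMIs (quartiles 2155 and 8939) and 1827.5 detected genes (960 and 2588). Both medians ranked 3 from the lowest of the 9 clusters, which ran from 3751 UMIs and 1438 genes in Hmox1+ monocytes to 12909 UMIs and 3385 genes in cycling monocyte-derived Langerhans cells (mLC). The median share of mitochondrial UMIs was 1.82% (1.40 to 2.38), the lowest of the 9 clusters, of which Hmox1+ monocytes had the highest at 2.31%. In BMT replicate 1 the 11 S100a+ cells had a median of 3546 UMIs, 767 genes and 1.62% mitochondrial UMIs, and in BMT + T cells the 9 had 2342 UMIs, 602 genes and 0.457%. In BMT replicate 2, 22 S100a+ cells had fewer than 500 genes and 2 had more than 20% mitochondrial UMIs.

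Levels below are CP10K, the UMIs of a gene summed over the cells of a cluster per 10000 UMIs of those cells, from cells of BMT replicate 2 unless another library is named. A gene was compared where it reached 0.1 CP10K in either cluster, and a ratio of 4 or more in either direction is called past 4-fold. The clusters were made from these same genes and nearly all members came from 1 library, so no ratio carries a test and all are descriptions.

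S100a8 and S100a9 marked the cluster in every library that held it. S100a8 stood at 797 CP10K in BMT replicate 1, 162 in BMT replicate 2 and 757 in BMT + T cells, and S100a9 at 884, 156 and 919. The BMT replicate 2 cells, which make up nearly the whole cluster, were thus the lowest of the 3 libraries for both genes. In the 8 other clusters of BMT replicate 2, S100a8 reached at most 3.48 CP10K (in Hmox1+ monocytes) and S100a9 at most 1.15 (in cycling mLC). In BMT replicate 1, Hmox1+ monocytes stood at 38.0 CP10K of S100a8, with a UMI in 18 of 24 cells, and in BMT + T cells at 4.70.

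The S100a+ cells held 91.9% of all S100a8 UMIs and 93.2% of all S100a9 UMIs of BMT replicate 2. At least 1 S100a9 UMI was found in 97.5% of them and in 19.3% of the other cells of that library, at median depths of 5038 and 7127 UMIs. For S100a8 the shares were 96.0% and 24.5%. In BMT replicate 1 and BMT + T cells the S100a+ cells held 57.3% and 63.2% of the S100a8 UMIs. For S100a9 they held 93.6% and 83.8% there. Free RNA in droplets gives UMIs in cells that do not express a gene, and the share with S100a9 among other cells was 3.36% in BMT replicate 1, 2.21% in BMT replicate 3 and 6.20% in BMT + T cells. The S100a9 share was thus highest in the library that held most S100a+ cells. The S100a8 share was 18.9% in BMT replicate 1, 8.85% in BMT replicate 3 and 19.4% in BMT + T cells, against 24.5% in BMT replicate 2. Whether free RNA contributed was not tested.

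Outside the donor cells the pair was sparse. Among keratinocytes, whose table was normalised separately, S100a8 stood at 0.376 CP10K in the BMT library and 0.839 in the BMT + T cells library, with a UMI in 1.23% and 3.09% of cells. S100a9 stood there at 0.180 and 0.772 CP10K. Host myeloid cells, also normalised separately, had 0.0136 CP10K of S100a8, from 7 UMIs in 781 cells.

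**Figure D1:**
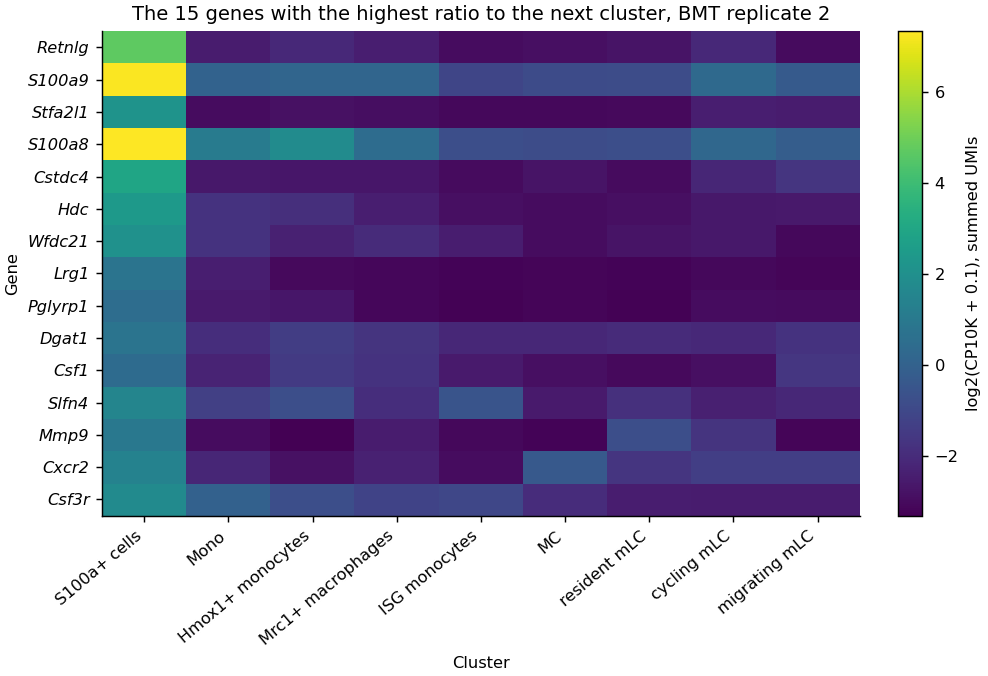
Level of the 15 genes with the highest ratio between the S100a+ cells and whichever other cluster was highest, in the 9 donor clusters of BMT replicate 2. Colour is log2(CP10K + 0.1), rows are genes and columns are clusters, and S100a8, S100a9 and Retnlg are brightest in the S100a+ column.

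Of the 15 genes that led the cluster over every other cluster, 9 were in the list of neutrophil markers. These include S100a8 and S100a9, which gave the cluster its name. The list had 13 members among the 15155 genes of the donor cells. Retnlg, a resistin-like gene of neutrophils, stood at 25.6 CP10K and exceeded the next cluster 192-fold, followed by S100a9 (136-fold), Stfa2l1 (4.29 CP10K, 49.3-fold) and S100a8 (46.5-fold). Cstdc4 (7.61 CP10K, 35.2-fold) and Stfa2l1 are stefin-type protease inhibitor genes with near-identical copies, among which reads could have been split, so their levels are uncertain. Next came Hdc, the enzyme that makes histamine, at 5.13 CP10K (25.9-fold), Wfdc21 (20.6-fold), Lrg1 (19.2-fold) and Pglyrp1, a bactericidal peptidoglycan-binding protein (1.31 CP10K, 18.1-fold).

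Receptors and secreted factors followed with smaller gaps. Mmp9, a gelatinase of neutrophil granules, stood at 1.80 CP10K and 3.71-fold above the next cluster, resident mLC. Cxcr2, the receptor that draws neutrophils to CXC chemokines, stood at 2.52 CP10K (3.68-fold), and Csf3r, the receptor of the neutrophil growth factor G-CSF, at 3.30 (3.67-fold). Dgat1 (5.61-fold), Csf1 (4.96-fold) and Slfn4 (4.83-fold) completed the 15, and the plot of these genes by cluster shows each of them brightest in the S100a+ cells. All 15 were also higher in the S100a+ cells than in the cluster Mono of the same library in BMT replicate 1 and in BMT + T cells.

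The cluster Mono, which the authors named for classical monocytes, was the comparison for the monocyte label. Of 7024 genes compared, 129 (1.84%) were higher past 4-fold in the S100a+ cells and 24 (0.342%) were lower, with a median log2 ratio of -0.09. Of 16 listed neutrophil markers 13 were analysed, and 12 of 13 were higher past 4-fold with a median log2 ratio of 4.40. S100a8 and S100a9 are among them, here and in the comparisons with other clusters. G0s2, Cxcl2 and Ly6g, the antigen that defines mouse neutrophils in sorting, were not analysed here. The remaining marker, Csf3r, was 3.67-fold higher (3.22 to 4.19).

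By contrast, 4 of 12 monocyte markers were lower past 4-fold, none was higher, and their median log2 ratio was -1.61. Plac8, a marker of classical monocytes, stood at 4.73 CP10K against 21.7 in Mono, and the matrix proteoglycan gene Vcan at 0.233 against 1.69. Gm9733 (0.435 against 1.89) and the coagulation factor gene F13a1 (0.0192 against 0.101) were the other two. Ly6c2, the Ly6C antigen of inflammatory monocytes, stood at 3.73 against 12.9, and Lyz2, lysozyme, at 15.8 against 50.8. Ccr2, the receptor that brings monocytes out of the marrow, stood at 0.359 against 0.981. Against Hmox1+ monocytes 2 of 13 monocyte markers were above 1 and their median log2 ratio was -1.03. The same markers ran higher than in some other clusters, with 8 of 11 above 1 against Mrc1+ macrophages (2 past 4-fold, median log2 ratio 0.77) and 9 of 11 against ISG monocytes (2 past 4-fold, median 0.59). Monocyte markers were thus mostly below Mono and Hmox1+ monocytes and mostly above Mrc1+ macrophages and ISG monocytes, and the cells are called S100a+ cells below.

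Granule genes, which neutrophil precursors make in the marrow, were mostly at or near 0. Of 10 listed granule genes 7 were analysed. Ngp, a granule protein gene, stood at 0.569 CP10K with no UMI in Mono (at least 60.4-fold higher against a floor of 3 counts), and Cd177 at 0.230 against 0.119. Camp stood at 0.0137 CP10K, Mpo, Prtn3 and Fcnb at 0.00274 each, and Ltf had no UMI, which allows a level of up to 0.00821 CP10K.

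Inflammatory mediators also stood above Mono. Of 14 genes for interleukin 1 and other inflammatory mediators, 5 were higher past 4-fold, 1 was lower, and the median log2 ratio was 1.15. The macrophage growth factor gene Csf1 was 11.4-fold higher (8.07 to 16.7), the prostaglandin synthase gene Ptgs2 4.32-fold (3.72 to 5.03) and the decoy interleukin 1 receptor gene Il1r2 4.28-fold (3.86 to 4.75). Tnfsf14, a TNF family ligand, stood at 0.197 CP10K against 0.0377, and Csf3 at 0.126 against 0.00943, which rests on 3 UMIs in Mono (13.3-fold, 4.29 to 67.1). Il18 was the gene that was lower, at 0.112 against 0.462.

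Il1b itself, which encodes the secreted cytokine, stood at 30.7 CP10K against 15.2 in Mono, 2.02-fold higher (1.96 to 2.09). The related genes Osm (2.43-fold) and Nlrp3, the inflammasome sensor (2.49-fold), also stayed under 4-fold. Tnf stood at 1.27 CP10K against 1.56.

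Among chemokines, 2 of 13 genes were higher past 4-fold. Ccl3 stood at 4.18 CP10K against 0.220 in Mono (19.0-fold, 14.95 to 24.5), and Ccl4 at 13.1 against 0.884 (14.9-fold, 13.2 to 16.8). The median log2 ratio of the chemokine list was 0.39. Of 17 trafficking and chemoattractant receptors, Cxcr2 (21.1-fold) and the formyl peptide receptor gene Fpr1 (12.2-fold) were past 4-fold and none was lower.

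Proteases, matrix and vessel genes had 6 of 18 higher past 4-fold and Vcan lower. Beside Mmp9 and Mmp8 (0.956 CP10K against 0.233) these were Spp1, encoding osteopontin (14.1-fold, 11.8 to 17.1), Ctsk (13.1-fold), Thbs1, encoding thrombospondin 1 (9.37-fold, 7.73 to 11.5), and Mmp13 (5.38-fold). Interferon-stimulated genes had 2 of 15 higher, Ifitm1 (13.2 CP10K against 1.00) and the antiviral gene Rsad2 (2.20 against 0.440), and a list median of -0.03.

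Metabolic and stress lists showed little shift. Of 18 glycolysis genes only the glucose transporter gene Slc2a3 was past 4-fold, at 0.758 CP10K against 0.00629 (121-fold, 33.1 to 1001, from 2 UMIs in Mono), and the list median was 0.01. The hypoxia list had 1 of 13 (Hilpda, 4.53-fold), and the oxidative stress list had 0 of 16 and a median of 0.20. Fth1, the ferritin heavy chain, stood at 204 CP10K against 137, Hmox1 at 1.35 against 1.14, and Sod2 at 0.364 against 0.987. None of 5 NADPH oxidase genes was past 4-fold.

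Summed over the cluster in BMT replicate 2, MHC class II genes did not separate the S100a+ cells from Mono. None of 7 was past 4-fold, with a median log2 ratio of 0.13, and H2-Aa stood at 106 CP10K against 92.8 and Cd74 at 130 against 140. The list was lower than in Mono elsewhere, at 68.7 CP10K against 589 in BMT replicate 1 and 25.8 against 640 in BMT + T cells. In the cells highest in S100a8 and S100a9, the high range below, the median of the MHC class II chains was 37.3 CP10K. It was 381 in Mono, and 359 and 367 in the lowest and middle ranges. Over the whole cluster, tissue macrophage markers had 0 of 13 past 4-fold against Mono and a median of 0.34, with C1qa at 23.8 CP10K against 12.1. Of 9 Langerhans cell markers, 8 were above 1 with a median log2 ratio of 1.66, and 3 were higher past 4-fold, namely Cd24a (5.51-fold), Mfge8 (4.97-fold) and Epcam (1.80 CP10K against 0.431). Cd24a is also known on neutrophils. Cd207, which encodes langerin, stood at 0.0739 CP10K against 0.0346. Against Mrc1+ macrophages, 5 of 10 Langerhans cell markers were above 1, with a median log2 ratio of -0.03. Against ISG monocytes 2 of 10 were, with a median of -0.41.

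In the other lists few genes passed 4-fold against Mono. Of 11 S100 family and antimicrobial genes, S100a8, S100a9 and Slpi (8.84-fold) were higher and Lyz1 was lower at 0.0767 CP10K against 2.11. Lyz1 is a near-identical copy of Lyz2, so its reads could have been split. The lectin receptor gene Clec4d (5.30-fold, 4.69 to 6.01) was the 1 of 13 C-type lectins, and Trem1, a receptor that amplifies inflammatory signals in neutrophils and monocytes (6.14-fold), the 1 of 12 Fc and pattern recognition receptors. Among genes of arginine metabolism and suppression, Ptgs2 and the arginase gene Arg2 (4.90-fold) were higher of 12. Egr1, an immediate early transcription factor (5.92-fold, 5.02 to 7.02), was the 1 of 10 immediate early and heat shock genes, and the nuclear receptor gene Nr4a3 (5.59-fold) the 1 of 8 migrating dendritic cell markers. Cdk1 and Birc5 were higher of 8 cell cycle genes, from 8 and 16 UMIs in Mono. None of 18 myeloid transcription factors, 14 survival and cell death genes, 10 lipid handling genes or 4 dendritic cell markers was past 4-fold.

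**Figure D2:**
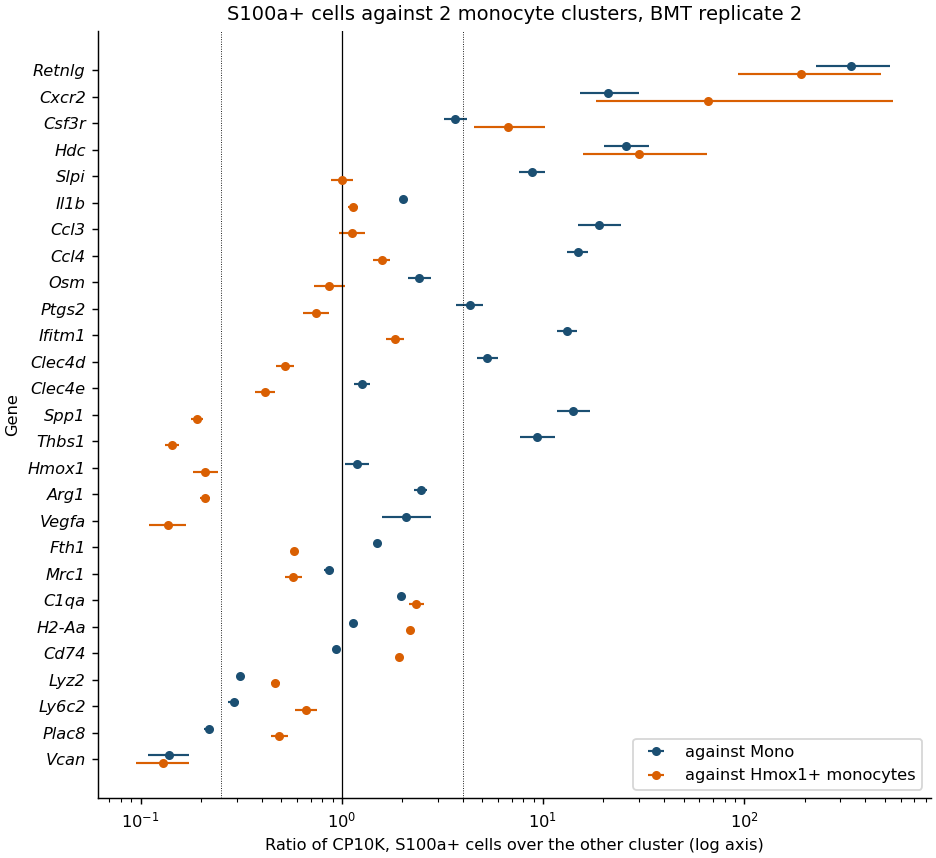
Ratio of CP10K between the S100a+ cells and 2 monocyte clusters, Mono and Hmox1+ monocytes, on a log axis, with 95% intervals for counting error and dotted lines at 4-fold. Retnlg, Cxcr2 and Hdc lie far to the right against both clusters, whereas Spp1, Thbs1, Hmox1 and Arg1 lie right of or near 1 against Mono and left of 1 against Hmox1+ monocytes.

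Hmox1+ monocytes, the other small cluster, stood far below the S100a+ cells in most neutrophil markers and close to them in some inflammatory mediators but not others. Of 7109 genes compared, 177 (2.49%) were higher past 4-fold in the S100a+ cells and 77 (1.08%) were lower, with a median log2 ratio of -0.04. Neutrophil markers had 9 of 13 higher past 4-fold and a median log2 ratio of 4.98, and Retnlg stood at 25.6 CP10K against 0.133 (192-fold, 93.3 to 478). Slpi, a secreted protease inhibitor, stood at 5.45 CP10K in both clusters (ratio 0.999, 0.883 to 1.14). Il1b (30.7 against 26.9), Ccl3 (4.18 against 3.72) and Ptgs2 (2.84 against 3.82) differed by less than 1.5-fold. Of 16 inflammatory mediators compared, 1 was higher and 2 were lower past 4-fold, with a median log2 ratio of -0.14. Of 13 chemokine ligands, 3 were higher and 1 was lower past 4-fold, with a median of 0.73.

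The genes that named the other cluster were lower in the S100a+ cells. Hmox1, the heme-degrading enzyme, stood at 1.35 CP10K against 6.44 in Hmox1+ monocytes, which was 4.76-fold higher there (4.13 to 5.48). The arginine-consuming enzyme gene Arg1 stood at 8.26 against 39.4, Thbs1 at 3.36 against 23.5 (reversed without BMT replicate 2, with a log2 ratio of 0.37 from the 20 cells elsewhere), Spp1 at 5.38 against 28.2 and the vessel growth factor gene Vegfa at 0.479 against 3.51. The oxidative stress list had Hmox1 alone past 4-fold of 16 and a median log2 ratio of -0.63, with Fth1 at 204 CP10K against 353. Hmox1+ monocytes also held less MHC class II than the summed S100a+ cells, with all 7 genes compared above 1 and a median of 1.30. This was reversed in the high range described below, with a median of 37.3 CP10K for the MHC class II chains against 123 in Hmox1+ monocytes. The lowest and middle ranges stood at 359 and 367. The list was also lower in the S100a+ cells of BMT replicate 1 (68.7 CP10K against 252) and BMT + T cells (25.8 against 257). Hmox1+ monocytes were shallower than the S100a+ cells, with a median of 3751 UMIs. They held 526458 UMIs in all, so low levels there rest on few counts. In the S100a+ cells 4 of 8 cell cycle genes were higher past 4-fold, Top2a at 0.361 CP10K against 0.0760. No cell cycle gene was past 4-fold against Mrc1+ macrophages (median log2 ratio 0.07) or ISG monocytes (median -0.42).

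Against Mrc1+ macrophages, the largest cluster of the library with 2602 cells, the summed S100a+ cells differed almost only by genes that were higher. Of 7023 genes compared, 120 (1.71%) were higher past 4-fold and 1 (0.0142%) was lower, and the median log2 ratio was -0.11. The gene that was lower, C77080, stood at 0.0164 CP10K against 0.101 and was named after its value was seen. Neutrophil markers had 12 of 13 higher past 4-fold (median 4.81), and Il1r2 was the exception at 2.03-fold. Il1b was 4.54-fold higher (4.42 to 4.66) and Ptgs2 16.4-fold (14.3 to 18.8). Interferon-stimulated genes had 4 of 15 higher and a median of 1.43. These values are for all S100a+ cells summed. In the cells at 1000 CP10K or more of S100a8 and S100a9 together, most genes past 4-fold were instead lower than in Mrc1+ macrophages.

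All 13 tissue macrophage markers compared had a ratio below 1 and none was past 4-fold, with a median log2 ratio of -0.75. C1qa, a complement gene of resident macrophages, stood at 23.8 CP10K against 38.6, the mannose receptor gene Mrc1 at 5.99 against 7.003, and Arg1 at 8.26 against 9.69. Summed over the cluster, the S100a+ cells thus carried these macrophage markers below the level of the Mrc1+ cells by less than 4-fold.

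In the remaining comparisons most neutrophil markers were again higher past 4-fold. Against ISG monocytes 153 of 7077 genes (2.16%) were higher past 4-fold and 16 (0.226%) lower, with 12 of 13 neutrophil markers and 6 of 14 inflammatory mediators higher, Il1b at 30.7 CP10K against 6.26. Only 2 of 15 interferon-stimulated genes were above 1 (Ifitm1 and Ifitm6), both past 4-fold, and Ifit2 was lower past 4-fold. Against resident mLC 436 of 7663 genes (5.69%) were higher and 287 (3.75%) lower. There 11 of 13 neutrophil markers, 9 of 11 monocyte markers and 8 of 13 macrophage markers were higher past 4-fold, and 7 of 11 Langerhans cell markers were lower, with a median of -3.43.

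The S100a+ cells were not uniform. The summed level of S100a8 and S100a9 per cell ran from 0 to 4551 CP10K in BMT replicate 2, with a median of 165 and 8 cells at 0. For description the cells were split at 100 and 1000 CP10K, which are ranges along a continuous measure and not cell types. Below 100 lay 227 cells (38.2%), from 100 to under 1000 lay 280 (47.1%), and at 1000 or more lay 87 (14.6%). Within 0.8 to 1.25 times the lower and upper limit lay 57 and 32 cells. The ranges were chosen after the values were seen.

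The range at 1000 or more was shallow. Its median cell held 1932 UMIs and 584 genes, against 6710 UMIs and 2147 genes in the middle range and 5426 UMIs and 1925 genes in the lowest. Thinning every cell to 2000 UMIs, which left out 47, 38 and 41 shallower cells of the 3 ranges, gave medians of 627, 951 and 990.5 genes. The high range remained the poorest in genes at equal depth. By its definition S100a8 and S100a9 take up more of those UMIs there, which leaves fewer for other genes. Mono and Mrc1+ macrophages had 963 and 956 genes at that depth.

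**Figure D3:**
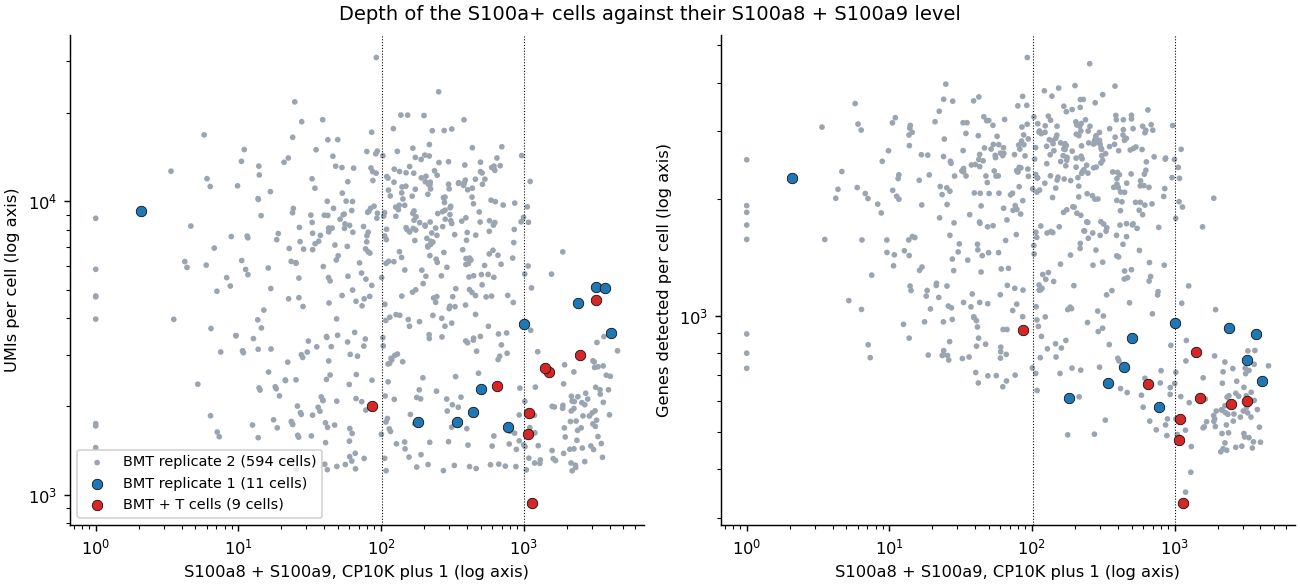
UMIs per cell (left) and genes detected per cell (right) against the summed S100a8 and S100a9 level per cell, in CP10K plus 1, for the 614 S100a+ cells, all axes on a log scale. Cells to the right of the dotted line at 1000 CP10K lie mostly below 1000 genes, and the cells of BMT replicate 1 and BMT + T cells lie mostly on that side or near it.

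The ranges differed in which lineage genes they carried. The other 11 neutrophil markers, summed per cell, had medians of 21.8 CP10K in the lowest range, 51.5 in the middle and 328 in the high range, against 2.22 in Mono and 1.62 in Mrc1+ macrophages. Retnlg, thinned to 2000 UMIs, was found in 24.2%, 72.7% and 97.5% of the cells of the 3 ranges, and in 1.71% of Mono and 1.83% of Mrc1+ cells. Without thinning the shares were 40.1%, 81.4% and 93.1%. The lowest range therefore already exceeded the monocyte and macrophage clusters of the same library in these genes.

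The MHC class II chains H2-Aa, H2-Ab1, H2-Eb1 and Cd74 had summed medians of 359, 367 and 37.3 CP10K in the 3 ranges, against 381 in Mono, 467 in Mrc1+ macrophages and 123 in Hmox1+ monocytes. The complement genes C1qa, C1qb and C1qc had medians of 37.0, 38.4 and 5.34 CP10K, against 6.33 in Mono and 56.5 in Mrc1+ macrophages. The lowest and middle ranges were thus nearest Mono in MHC class II and nearer Mrc1+ macrophages than Mono in C1q genes. The high range lay below these clusters in MHC class II, although the sort had selected MHCII+ cells. Whether doublets or free RNA contributed to the lowest and middle ranges was not tested.

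Summed over the range, the same split held for single genes. Retnlg stood at 2.44, 24.0 and 196 CP10K from the lowest to the high range, Csf3r at 1.78, 3.22 and 14.2, and Ngp at 0.0281, 0.258 and 7.16. Wfdc17, a protease inhibitor gene of activated myeloid cells, stood at 10.7, 22.5 and 88.3 CP10K, and Ifitm1 at 6.48, 13.1 and 58.9. Mrc1 ran the other way, at 6.76, 5.87 and 1.93, as did Mfge8 at 7.37, 4.25 and 1.41.

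Other genes varied less over the ranges. Il1b stood at 29.2, 28.9 and 57.2 CP10K, Ccl4 at 14.1, 11.5 and 21.9, and Lyz2 at 14.1, 17.1 and 14.99. Spp1 stood at 5.44, 5.68 and 2.07. Il1b and Ccl4 were thus found in all 3 ranges, including the one with the fewest neutrophil transcripts.

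**Figure D4:**
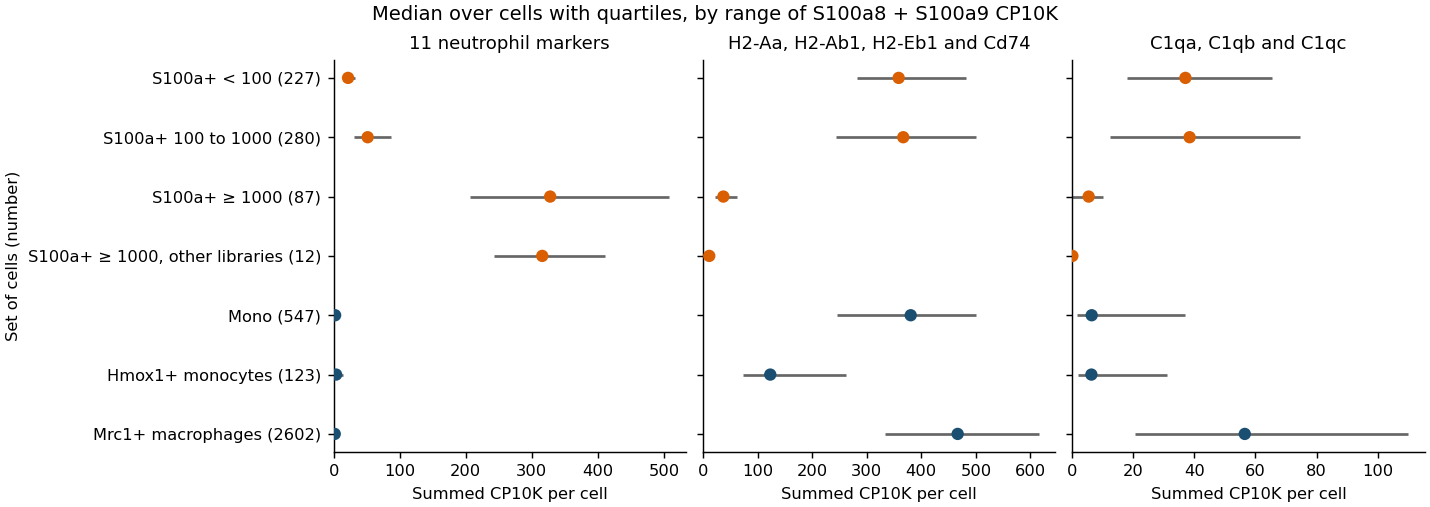
Median over cells (points) and quartiles (lines) of the summed CP10K of 11 neutrophil markers, the MHC class II chains and the C1q genes, in the 3 ranges of S100a+ cells of BMT replicate 2, the high range of the other libraries and 3 other clusters. The high range stands at 328 and 316 for neutrophil markers in the 2 sets of libraries and lowest for MHC class II and C1q.

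Across 8310 genes without S100a8 and S100a9, the profile of the lowest range, as log2(CP10K + 0.1), was closest to Mrc1+ macrophages (Pearson's r = 0.973) and then to Mono (0.959). The middle range gave 0.963 and 0.957. The high range reached only 0.802 with Hmox1+ monocytes, 0.797 with Mono and 0.770 with Mrc1+ macrophages. These coefficients are across genes of 1 library, which are not independent, and the shallower high range has more counting noise.

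Latent time, a value from 0 to 1 that the authors derived from RNA velocity, was mostly higher in the high range. Its median was 0.319 in the lowest range, 0.314 in the middle and 0.931 in the high range, with quartiles of 0.861 and 0.964 in the last. The ranges overlapped, with values up to 0.899 in the middle range and down to 0.221 in the high range. Latent time comes from transcripts of the same cells and the limits were set after the values were seen, so this is a description. Over all S100a+ cells of BMT replicate 2 the median was 0.328, which ranked 6 of 9 from the lowest, between 0.184 in ISG monocytes and 0.517 in resident mLC. The plot of latent time against S100a8 and S100a9 shows a flat band near 0.3 over most levels and a separate group near 0.9.

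**Figure D5:**
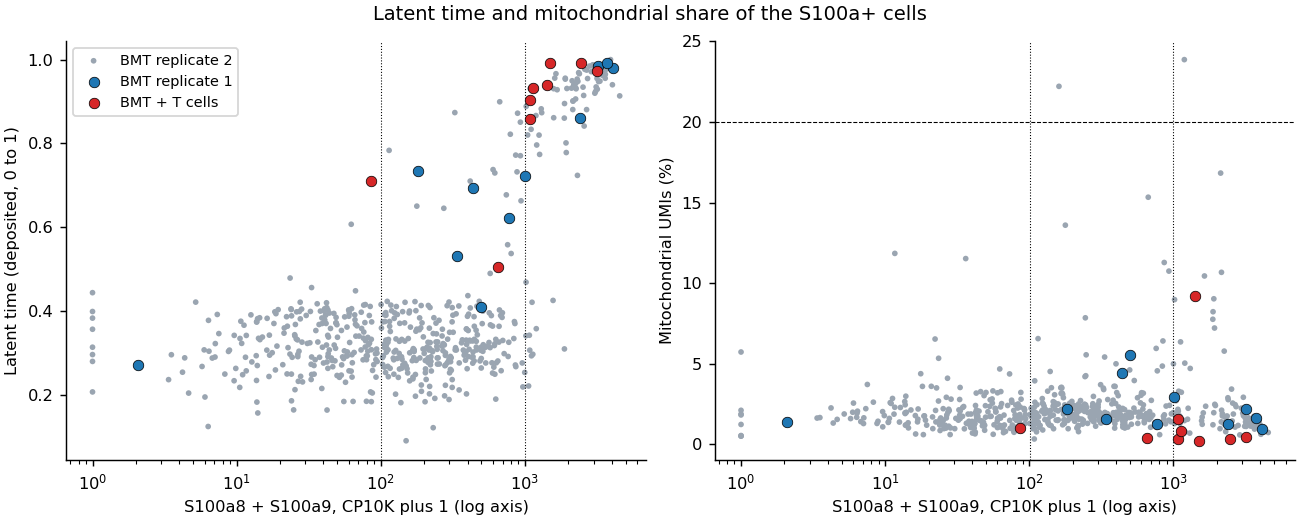
Deposited latent time, from 0 to 1 (left), and percent of mitochondrial UMIs (right) against the summed S100a8 and S100a9 level per cell, in CP10K plus 1 on a log axis, for the S100a+ cells of the 3 libraries. Most cells at 1000 CP10K or more lie above 0.8 in latent time, while their mitochondrial share (medians 1.67%, 1.93% and 1.77% over the 3 ranges) stays in the same band, and the dashed line marks 20%.

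The 20 S100a+ cells of the other libraries lay mostly at the high end. Of these, 12 were at 1000 CP10K or more, 6 in the middle range and 2 in the lowest. The 12 high cells had medians of 316 CP10K for the 11 neutrophil markers, 11.4 for the MHC class II chains and 0 for the C1q genes. The 6 cells of the middle range had medians of 80.9 for the MHC class II chains, 0 for the C1q genes and 0.576 in latent time, against 367, 38.4 and 0.314 in the middle range of BMT replicate 2. In BMT replicate 1 and BMT + T cells, Retnlg stood at 94.2 and 40.1 CP10K with no UMI in Mono of either library, and Il1b at 79.5 and 223. H2-Aa stood at 13.7 and 11.5 CP10K there, against 106 in BMT replicate 2.

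Of the 129 genes higher past 4-fold than in Mono in BMT replicate 2, 82 were also higher in the S100a+ cells of BMT replicate 1 and 72 in those of BMT + T cells. Of the 24 that were lower, 21 and 20 were also lower. Over all genes compared in BMT replicate 2, 2857 of 7024 had a ratio above 1 against Mono and 3384 of 7109 against Hmox1+ monocytes. The share over all genes in BMT replicate 1 and BMT + T cells was not computed, so these counts have no background of their own. The S100a+ cells there held 40746 and 21712 UMIs in all, so weakly expressed genes were poorly measured. Against Hmox1+ monocytes, 86 and 58 of the 177 higher genes kept their side in the same 2 libraries. Of the 77 lower genes there, 55 and 68 did. The middle range with both neutrophil markers and C1q transcripts was therefore seen in BMT replicate 2, and the median of the 6 middle-range cells elsewhere did not show it.

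Among the S100a+ cells of BMT replicate 2, the genes with the highest correlation with S100a9 included neutrophil markers. Over the 468 cells with at least 2000 UMIs, each thinned to 2000, and 1249 genes found in at least 20% of them, Spearman's coefficient with S100a9 was 0.927 for S100a8, 0.697 for Retnlg and 0.583 for Wfdc21. Wfdc17 (0.463), Hp, encoding haptoglobin (0.443), Ifitm1 (0.441), Mmp9 (0.441), Lrg1 (0.412), S100a11 (0.392) and Cxcr2 (0.365) followed. Of the 16 genes above 0.3, 7 were in the neutrophil list, which had 11 members among the 1248 genes compared with S100a9. The lowest values were -0.338 for Rplp2, -0.334 for AA467197, -0.327 for Ptma, -0.326 for Ctss and -0.326 for H2-Aa, and the median over all genes was -0.06. The cells share 1 library, and at equal depth a large S100a9 count leaves fewer UMIs for other genes.

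By list, the coefficient was 0.684 for the other neutrophil markers, 0.377 for interferon-stimulated genes, 0.085 for monocyte markers, -0.157 for C1q genes and -0.252 for MHC class II chains. In another setting only the UMIs other than those of S100a8 and S100a9 were thinned, and the reference was the unthinned CP10K of S100a8 and S100a9 together. The C1q and MHC class II coefficients with that sum were -0.031 and -0.0644 over 441 cells. With no cell left out the coefficients with S100a9 were stronger, at -0.291 and -0.387 when thinned to 1000 UMIs and at -0.295 and -0.394 with no thinning. The main setting left out 47 of the 87 cells of the high range. The negative relations thus varied in size with the cells, depth and reference used, whereas the neutrophil markers stayed between 0.670 and 0.771.

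The boundary of the cluster was narrow for cells of high level and open for those of low level. Of the 7788 other cells in BMT replicate 2, none reached 1000 CP10K of S100a8 and S100a9 together, 14 reached 100, and 5 reached the S100a+ median of 165. The 10th percentile of the S100a+ cells was 16.8 CP10K, which 148 other cells reached, 81 of them Mrc1+ macrophages.

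Markers of other cell types were low in the S100a+ cells. None of 7 T and NK cell markers reached the minimum, and their summed level was 0.233 CP10K, against 0 to 0.296 over the other clusters. The 8 keratinocyte markers summed to 1.54 CP10K (0.827 to 2.43 elsewhere), B cell markers to 0.170 (0.0847 to 1.08), fibroblast and endothelial markers to 0.323 (0.0220 to 0.779), and melanocyte markers to 0.449 (0.158 to 0.587). Mast cell and basophil markers summed to 0.392 (0.0570 to 0.458), of which Mcpt8, a basophil protease, gave 0.216. Red cell and platelet markers summed to 4.66 (0.155 to 14.5), nearly all of it Pf4 at 4.65, which macrophages also express. None of these sums lay outside the range of the other clusters, and their part in the results was not tested.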

How the data were processed

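Libraries were made with a 5′ single-cell kit from sorted epidermal cells of pooled mice. The authors quantified reads with kallisto and bustools against GRCm38, per the submitters' processing notes, and used Seurat to deposit natural log values, ln(1 + UMIs per 10000 UMIs of the cell). Their methods state that cells under 500 genes or over 20% mitochondrial UMIs were removed, although some remain, and that doublets were removed with DoubletFinder. Doublets were not called again here. The deposited percent of mitochondrial UMIs, latent time (a fraction from 0 to 1), clusters and library names were used as given.

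Whole UMIs were recovered from 100% of the deposited donor values (tolerance 0.001), as were cell totals. The 15155 tabulated genes hold no mitochondrial genes and a median of 91.3% of the UMIs of a cell. The donor libraries held 2982296 to 64343817 UMIs, with medians of 7021.5 to 13387 per cell, so low levels were measured less precisely in small clusters and in the 20 members outside BMT replicate 2.

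UMIs were summed per cluster and library. Levels have exact Poisson intervals, ratios exact conditional intervals and shares Clopper-Pearson intervals (95%, counting error only). Genes entered at 0.1 CP10K or more in either cluster, with more than 3 UMIs in at least 1 of them, and a 0 was set to a floor of 3 counts. No test was made, because 1 library holds nearly all members and the same genes made the clusters. Libraries with the same group label are counted as separate samples, and no label says that they came from separate mice. The ratio, thinning and count recovery steps were tested on simulated data. Alternatives were another level per cell, thinning, stricter filters, other minimums, a pseudocount, pooled libraries, a depth without S100a8 and S100a9, and each BMT library left out. Alternatives by S100a8 and S100a9 range, and the thinning of all other UMIs, were chosen after seeing the data.

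Named genes were the markers, members of 33 gene lists, the 12 highest and lowest ratios to Mono, the 8 highest and lowest to Hmox1+ monocytes and Mrc1+ macrophages and the 15 highest to every other cluster (at 1 CP10K or more), and the 10 highest and 5 lowest Spearman coefficients with S100a9. The members and lists were chosen with earlier results of these data known. Promoter sequences came from the RefSeq table of GRCm38.p6, where both genes were matched by symbol. Figures were drawn with matplotlib 3.10.9, and computations used SciPy 1.17.1, pandas 2.3.3 and NumPy 2.4.6 in Python 3.11.15.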

Additional observations from a re-analysis of the deposited data

How the results depend on the processing

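The number of genes past 4-fold in either direction was 153 against Mono, 254 against Hmox1+ monocytes, 121 against Mrc1+ macrophages, 169 against ISG monocytes and 723 against resident mLC. In the same order it was 44, 51, 43, 63 and 215 with a minimum of 1 CP10K, and 48, 64, 53, 72 and 282 with a pseudocount of 0.1 CP10K, both of which lower the weight of weakly expressed genes. With no minimum it was 513 against Mono, 351 against Mrc1+ macrophages, 481 against ISG monocytes and 1438 against resident mLC. Without BMT replicate 2 it was 957, 810, 1046, 1095 and 1304, where 20 cells and few UMIs stand for the cluster. With only the cells at 1000 CP10K or more of S100a8 and S100a9 it was 1148 against Mono and 1288 against Mrc1+ macrophages, and with only those under 100 it was 77 against Mrc1+ macrophages. Most of the 1148 and of the 1288 genes were lower in the cells at 1000 CP10K or more. With all S100a+ cells of BMT replicate 2, and with only those under 100, most were higher in both comparisons. The cause of these shifts was not tested. Without BMT replicate 2 the medians were 2481 UMIs, 671 genes and 1.34% mitochondrial UMIs. The difference in share between BMT and BMT + T cells ran from -1.04 to 2.51 percentage points when each BMT library was left out, and BMT replicate 2 decided its sign. The Spearman coefficient of S100a9 with C1q genes was -0.291 when thinned to 1000 UMIs and -0.295 with no thinning. When only the other UMIs were thinned, the coefficient was taken with S100a8 and S100a9 together, and it was -0.031. For MHC class II chains these were -0.387, -0.394 and -0.0644. With no thinning it was 0.771 for neutrophil markers and 0.476 for interferon-stimulated genes, and the latter was 0.279 when only the other UMIs were thinned. Of 134 named gene ratios, 2 reversed, both without BMT replicate 2, namely Thbs1 against Hmox1+ monocytes (log2 ratio 0.37) and Trem2 against resident mLC (-1.98). Many more moved in size without reversing. Without BMT replicate 2, 112 moved and 15 stayed the same. With the pseudocount 101 moved and 33 stayed, and with the donor libraries pooled 77 moved and 57 stayed. No paired analysis was possible because no result comes from a test and nearly all cells come from 1 library. The depth of 1 library, with no second library of similar size, limits every ratio to a description.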
